A study of Mus musculus with 9 samples.

Results

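The genes described here make, take up, move and export cholesterol. They are 32 genes named by symbol, and every one of the 32 symbols is listed in both of the authors' deposited tables, which hold 24015 genes each. Of the 32, 31 had a measured level and an adjusted p in both tables, and their lowest mean normalised counts were 13.3 and 23.0, both for Nr1h3. The remaining one, Hmgcs1, the enzyme that joins acetoacetyl-CoA and acetyl-CoA ahead of the mevalonate branch, is listed at 0 in both tables, so no value is given for it.

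Cholesterol does not cross the blood-brain barrier in quantity, so the brain makes its own. Acetyl-CoA is built into mevalonate and then into isoprenoids, pairs of farnesyl units are joined to squalene, squalene is folded into lanosterol, and a chain of enzymes trims lanosterol to cholesterol. When sterols in the endoplasmic reticulum run low, the escort protein Scap carries SREBP proteins, the products of Srebf1 and Srebf2, to the Golgi for cleavage, and the freed factors switch on the pathway's genes. Insig proteins hold Scap back when sterols are ample. Astrocytes supply neurons with cholesterol in lipoproteins, and neurons dispose of a surplus by hydroxylating it with Cyp46a1.

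RNA of the dentate gyrus, the hippocampal region whose main cells are granule neurons, was sequenced from individual C57BL/6 mice aged 8 weeks, with 3 mice making up each group, E0, E1 or E4. The labels attach no unit to the E numbers and name no treatment. As background to the study, E0 mice were unstimulated and the other groups were taken 1 h and 4 h after electroconvulsive stimulation, which makes granule neurons fire together. All mice share strain, age and tissue, and no genotype or second treatment is given in the labels. The 2 tables compare E1 with E0 and E4 with E0 on the same E0 libraries, and list for every gene its mean normalised count, the log2 fold change, the standard error of that change (SE) and DESeq2's adjusted p. They hold no value per mouse. The group means below were therefore computed from the deposited mean and fold change, and they carry no spread. Folr1, a gene hardly read at a mean count of 0.28, had an SE of only 0.26 in E1. The deposited fold changes thus appear to have been moderated, that is, made smaller where counts are low. The folds and group means below are approximate for that reason, most so for rarely read genes.

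Read depth, approximated from genes read only once in a comparison, was 1940000 to 4760000 reads per E1 library and 10020000 to 13550000 per E4 library, against 6140000 to 10960000 per E0 library. Among genes averaging 50 counts or more, the median SE of the authors' deposited tables was 0.170 for E1 and 0.135 for E4. Arc, a gene induced by firing, was 101-fold higher in E1 and 10.7-fold higher in E4 in the authors' deposited tables. All 10 granule neuron markers were measured, with none at 0. In E1, 3 of them were higher and 7 lower, and in E4 4 were higher and 5 lower, with summed levels of 0.714 and 0.841 times those in E0. Of 12 oligodendrocyte markers, 4 were higher and 2 lower in E1, and none was called in E4. In E1, 8 of 12 astrocyte markers and 4 of 11 microglia markers were lower, while 5 of 9 interneuron markers and 3 of 8 endothelial and pericyte markers were higher. Their summed levels in E1 were 0.889, 0.715, 1.70 and 1.53 times those in E0, and no marker in these lists was at 0. In E4 the same 4 sums were 0.964, 0.914, 1.11 and 1.02 times those in E0. Gad1 and Gad2 held the highest E1 levels in the interneuron sum, at 2358 and 1086 counts, against 1674 and 365 in E0. Also lower in E1 were 1 of 7 oligodendrocyte precursor markers and 1 of the 4 choroid plexus markers tested. Beside these counts, 20.6% of all genes tested were higher in E1 and 15.0% lower. In E4 the shares were 20.7% and 18.3%. The part of these marker shifts in the results below was not tested. In bulk tissue, a change in the number of cells of a type, in RNA per cell or in a marker's expression by another cell type cannot be told apart.

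The promoters of these genes are known for 3 elements: the sterol response element bound by SREBP, the CCAAT box bound by NF-Y and the GC box bound by Sp1. RefSeq promoter entries (build GRCm38.p6, 250 bases before to 50 after a start site) were matched for 26 of the 32 genes, with 37 entries. Shown 5′ to 3′ are the 250 bases before the start of the 6 called genes with the smallest adjusted p among those with 1 annotated start, because theirs are among the clearest calls of the set. Capitals mark the CCAAT box, the GC box as GGGCGG and the sterol motif as TCACNCCA, on either strand.
Srebf2, chr15:82147019-82147268, plus strand: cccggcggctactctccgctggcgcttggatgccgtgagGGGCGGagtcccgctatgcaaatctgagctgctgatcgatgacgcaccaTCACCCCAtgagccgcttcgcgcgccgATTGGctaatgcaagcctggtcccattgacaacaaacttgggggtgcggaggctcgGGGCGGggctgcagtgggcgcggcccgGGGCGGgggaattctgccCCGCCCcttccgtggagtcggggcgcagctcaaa
Ebp, chrX:8193513-8193762, minus strand: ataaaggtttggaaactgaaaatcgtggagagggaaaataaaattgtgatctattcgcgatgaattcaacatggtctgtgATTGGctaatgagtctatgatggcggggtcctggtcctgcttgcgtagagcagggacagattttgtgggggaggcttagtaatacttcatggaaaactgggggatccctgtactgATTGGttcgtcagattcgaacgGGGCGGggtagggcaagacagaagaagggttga
Cyp51, chr5:4104698-4104947, minus strand: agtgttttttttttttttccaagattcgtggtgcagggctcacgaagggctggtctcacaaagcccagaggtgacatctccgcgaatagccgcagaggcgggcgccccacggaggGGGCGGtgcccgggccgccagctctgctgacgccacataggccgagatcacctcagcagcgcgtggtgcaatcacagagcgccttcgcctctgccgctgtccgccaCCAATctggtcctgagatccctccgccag
Idi1, chr13:8885356-8885605, plus strand: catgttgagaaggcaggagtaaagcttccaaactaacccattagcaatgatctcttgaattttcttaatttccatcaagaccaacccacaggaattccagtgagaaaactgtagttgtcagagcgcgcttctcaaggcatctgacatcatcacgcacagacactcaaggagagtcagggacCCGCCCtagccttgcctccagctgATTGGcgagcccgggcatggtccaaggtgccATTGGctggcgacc
Sc5d, chr9:42264301-42264550, minus strand: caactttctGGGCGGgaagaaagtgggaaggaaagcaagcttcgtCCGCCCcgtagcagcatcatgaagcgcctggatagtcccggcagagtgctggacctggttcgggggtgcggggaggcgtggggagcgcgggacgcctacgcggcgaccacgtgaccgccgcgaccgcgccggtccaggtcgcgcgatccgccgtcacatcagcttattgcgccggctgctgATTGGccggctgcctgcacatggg
Insig1, chr5:28071162-28071411, plus strand: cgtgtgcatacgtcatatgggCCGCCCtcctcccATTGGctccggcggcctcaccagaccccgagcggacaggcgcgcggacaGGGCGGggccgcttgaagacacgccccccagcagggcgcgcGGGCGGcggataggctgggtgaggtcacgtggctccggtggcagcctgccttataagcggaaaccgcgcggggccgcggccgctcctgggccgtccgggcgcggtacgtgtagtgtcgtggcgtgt

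CCAAT was found on either strand in the entries of 20 of the 26 genes (76.9%), against 41.1% of all 27025 genes with an entry and 42.4% of those with an entry that were tested in E1. GGGCGG was found in 22 of the 26 (84.6%), against 38.2% of all and 65.8% of those tested. A sterol response motif written as TCACNCCAC was present in 1 of the 26, Hmgcs1, against 1.44% of all genes. The shorter form TCACNCCA, which lies inside the longer one and was chosen after that outcome was seen, occurred in Hmgcs1, Msmo1 and Srebf2, 3 of 26 against 4.97% of all genes. In Srebf2 it begins 162 bases before the start and precedes a CCAAT box on the other strand at -135, as the printed sequence shows. TGACGTCA, the cyclic AMP response element, was found in the entries of none of the 26 genes, against 2.03% of all genes and 3.37% of those tested in E1. TGANTCA, the AP-1 site, occurred in Dhcr7 and Msmo1, against 8.97% of all genes and 6.46% of those tested in E1. GCGTGGGCG, an Egr site, occurred in Dhcr7, against 0.707% of all and 1.34% of those tested. A match describes letters in this window and is not a measured binding site. Only these spellings were searched, so a promoter without a match may still hold an element spelled differently.

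For E1 against E0 the question is which of these transcripts had changed early on. Of the 31 genes 12 were higher in E1 (38.7%), against 20.6% of all 15660 genes tested, and 3 were lower (9.68%), against 15.0% of all. Called genes of either direction made up 35.5% of all genes tested. Among the 10011 tested genes averaging 50 counts or more, 25.1% were higher in E1 and 21.7% lower, against 12 and 3 of the 30 cholesterol genes at that level. The median log2 fold change was 0.22 over the 31 genes and 0.02 over all genes tested. The rises lay in the enzymes, where 8 of 17 measured were higher and none lower, and in Srebf2, Insig1, Lrp8 and Stard4. The summed level of the 17 enzymes in E1 was 1.39 times that in E0. Interneuron and endothelial marker sums, at 1.70 and 1.53 times those in E0, were higher beside it, and their part in it was not tested.

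The plot of fold changes by role shows 5 of the 12 rises of E1 among the enzymes after lanosterol, and all 3 falls among transport and export genes. Counts by role below stand beside 20.6% of all genes tested higher in E1 and 15.0% lower. For E4 those shares were 20.7% and 18.3%.

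**Figure D1:**
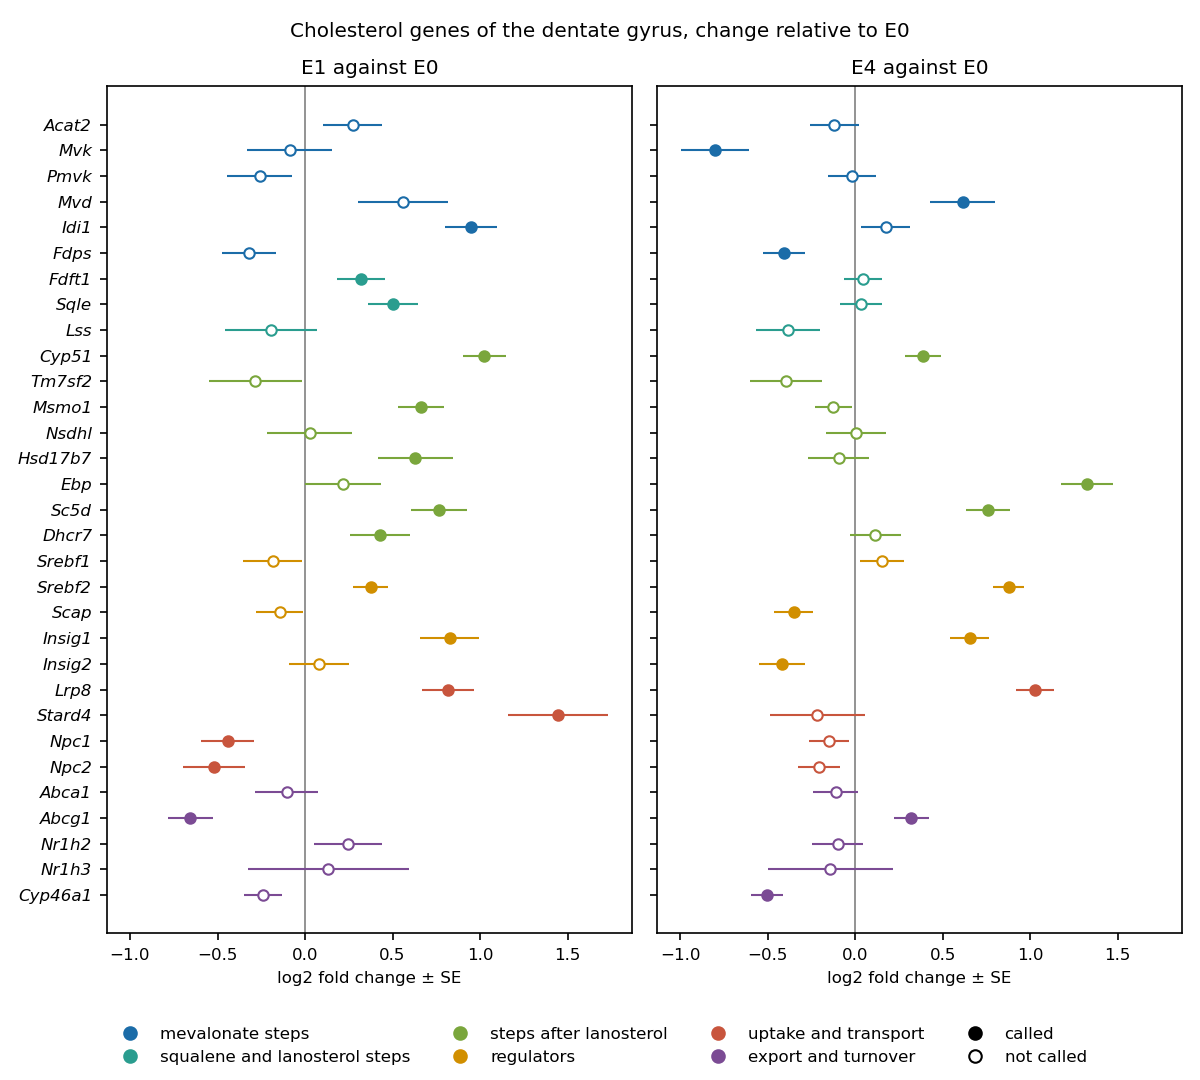
Log2 fold change with SE for the 31 measured genes, E1 against E0 on the left and E4 against E0 on the right, from the authors' deposited tables. Colour gives the role and filled points passed an adjusted p of 0.05. In E1 the filled points are 12 to the right of 0 and 3 to the left, and in E4 8 and 5.

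Of the 6 measured genes of the mevalonate steps, 1 was higher in E1. Idi1, which turns isopentenyl diphosphate into its reactive isomer, averaged 459 normalised counts in E1 and 238 in E0, from the authors' deposited table. That is 1.93-fold (log2 0.95 ± 0.15, adjusted p = 2.65e-09). Mvd, the decarboxylase just ahead of it, stood at 0.56 ± 0.25 in the authors' deposited table and was not called (adjusted p = 0.0729). The other 4 estimates were nearer to 0, with Acat2, the thiolase that condenses acetyl-CoA, at 0.27 ± 0.17, Mvk, the mevalonate kinase, at -0.09 ± 0.24, Pmvk, which adds the next phosphate, at -0.26 ± 0.18, and Fdps, the farnesyl diphosphate synthase, at -0.32 ± 0.16, in the authors' deposited table. None was called, and their 95% intervals reach as low as -0.63 (Fdps) and as high as 0.60 (Acat2).

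At the squalene and lanosterol steps 2 of 3 genes were higher in E1. Sqle, the squalene epoxidase and a known control point, averaged 345 counts in E1 and 243 in E0, from the authors' deposited table, a rise of 1.42-fold (log2 0.50 ± 0.14, adjusted p = 0.0019). Fdft1, the squalene synthase, averaged 368 in E1 and 295 in E0 in the authors' deposited table, which passed narrowly (0.32 ± 0.13, adjusted p = 0.0499) and was lost when p-values were adjusted over every gene with one (adjusted p = 0.0576). Exons of Fdft1 share 18.3% of their bases with Ctsb on the opposite strand, and strand use in counting is not given, so reads there cannot be told apart. Ctsb stood at 0.06 ± 0.09 in the authors' deposited table. Lss, the cyclase that forms lanosterol, was at -0.20 ± 0.26 in the authors' deposited table and was not called.

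The steps after lanosterol held the most rises, 5 of 8, with a median log2 fold change of 0.53. Cyp51, the demethylase that acts on lanosterol, averaged 644 counts in E1 and 317 in E0, from the authors' deposited table (2.03-fold, 1.02 ± 0.12, adjusted p = 4.01e-15). Sc5d, the desaturase late in the chain, averaged 388 in E1 and 228 in E0 (1.70-fold, 0.77 ± 0.16, adjusted p = 1.47e-05, authors' deposited table). Msmo1, the methyl sterol oxidase, averaged 496 in E1 and 313 in E0 (1.58-fold, 0.66 ± 0.13, adjusted p = 4.94e-06, authors' deposited table). These enzymes act at separate points of the chain, and each estimate was more than 4 times its SE. Exons of Cyp51 share 3.76% of their bases with Akap9 on the opposite strand, which stood at 0.40 ± 0.16 in the authors' deposited table (adjusted p = 0.0417). Other genes of the set share exon bases too, among them Idi1 (9.22%, Gm48574) and Npc1 (4.52%, Rmc1) on the opposite strand. Tm7sf2 shares 12.1% with Vps51 on the same strand.

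Hsd17b7, the ketosteroid reductase of the demethylation complex, stood at 0.63 ± 0.21 (adjusted p = 0.0119) in the authors' deposited table. Dhcr7, which makes cholesterol from its last precursor, stood at 0.43 ± 0.17 (adjusted p = 0.0359). Both were called, and neither passed an adjusted p of 0.01. The call of Hsd17b7 was lost after correction for a trend with length and GC (adjusted p = 0.0692), while Mvd was then called as higher (0.82, adjusted p = 0.00598). Ebp, a sterol isomerase, at 0.22 ± 0.22, Nsdhl, a dehydrogenase, at 0.03 ± 0.24 and Tm7sf2, a sterol reductase, at -0.28 ± 0.27 did not pass in the authors' deposited table. Enzymes in the same stretch of the chain thus differed in whether they passed the test, and a difference between enzymes was not tested.

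Among the regulators 2 of 5 were higher in E1, 1 of each related pair. Insig1, the SREBP target that retains Scap, averaged 445 counts in E1 and 251 in E0, from the authors' deposited table (1.77-fold, 0.83 ± 0.17, adjusted p = 5.83e-06). Its relative Insig2 averaged 305 in E1 and 289 in E0 in the authors' deposited table (0.08 ± 0.17, 95% interval -0.25 to 0.41). Srebf2, the SREBP gene tied to cholesterol synthesis, averaged 1068 in E1 and 823 in E0 (1.30-fold, 0.38 ± 0.10, adjusted p = 0.000979, authors' deposited table). Srebf1, whose products lean toward fatty acid genes, stood at -0.19 ± 0.17 and Scap at -0.15 ± 0.14 in the authors' deposited table, neither called.

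In uptake and transport all 4 genes were called in E1, 2 in each direction. Stard4, a carrier of cholesterol between membranes, gave the highest value of the 31 genes, with 89.2 counts in E1 and 32.8 in E0 from the authors' deposited table (2.72-fold, 1.44 ± 0.29, adjusted p = 3.48e-06). It is also a rarely read gene, and its SE was the second highest of the set after that of Nr1h3. Lrp8, a lipoprotein receptor that also binds reelin, averaged 618 in E1 and 351 in E0 (1.76-fold, 0.81 ± 0.15, adjusted p = 3.81e-07, authors' deposited table). The pair that moves cholesterol out of lysosomes was lower. Npc1 averaged 237 counts in E1 and 323 in E0 (-0.44 ± 0.15, adjusted p = 0.0112) and Npc2 187 in E1 and 267 in E0 (-0.52 ± 0.18, adjusted p = 0.0126) in the authors' deposited table. Beside these values, the summed levels of astrocyte and microglia markers in E1 were 0.889 and 0.715 times those in E0, and their part in the falls was not tested. Neither Npc1 nor Npc2 passed an adjusted p of 0.01.

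Of the genes of export and turnover 1 of 5 was called, and it was lower in E1. Abcg1, an exporter that loads cholesterol onto lipoproteins, averaged 327 counts in E1 and 514 in E0, from the authors' deposited table (1.58-fold lower, -0.66 ± 0.13, adjusted p = 3.3e-06). Abca1, the other exporter, at -0.11 ± 0.18, was not called in the authors' deposited table. Nr1h2, the liver X receptor beta that senses oxysterols and has an annotated pseudogene, stood at 0.25 ± 0.20 and was likewise not called in the authors' deposited table, but it was called as higher without the length and GC trend (0.53, adjusted p = 0.0241). Nr1h3, the alpha form, stood at 0.13 ± 0.46, with the widest interval of the set, -0.76 to 1.03, and the lowest mean count. Cyp46a1, the neuronal 24-hydroxylase, averaged 741 in E1 and 875 in E0 in the authors' deposited table and was not called (-0.24 ± 0.11, adjusted p = 0.0708).

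The plot of the 31 genes among all genes sets their sizes against those of genes with like counts.

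**Figure D2:**
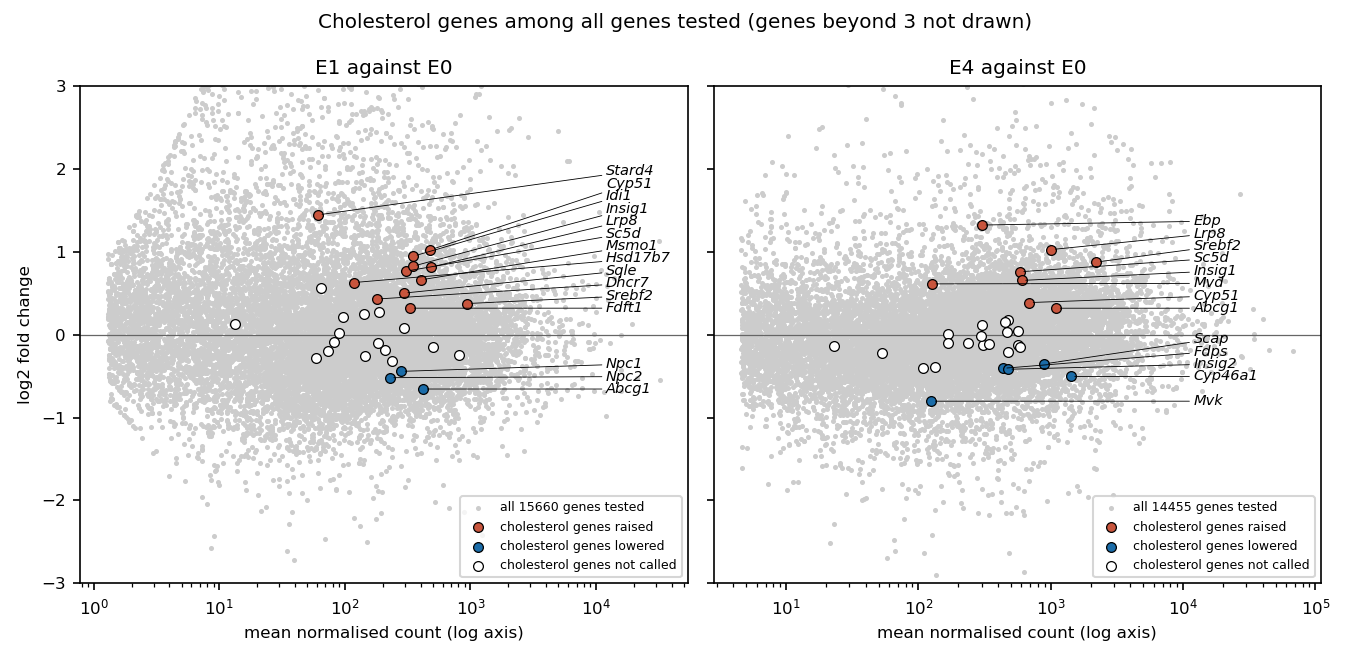
Log2 fold change against mean normalised count (log axis) for all genes tested, grey, with the 31 cholesterol genes on top, E1 against E0 on the left and E4 against E0 on the right, from the authors' deposited tables. In E1 the called genes sit between -0.66 (Abcg1) and 1.44 (Stard4), and in E4 between -0.80 (Mvk) and 1.32 (Ebp), inside the cloud of all genes in both. Genes beyond 3 in either direction are not drawn.

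For E4 against E0 the question is which of these transcripts were changed later on. Of the 31 genes 8 were higher in E4 (25.8%), against 20.7% of all 14455 genes tested, and 5 were lower (16.1%), against 18.3% of all. Both shares are near those of all genes, of which 39.0% were called in either direction, so the count itself is no result about these genes. Their median log2 fold change was -0.09, and -0.01 over all genes tested. Among the called genes, Ebp, Lrp8, Srebf2, Sc5d, Insig1 and Mvd were raised by 0.61 or more, and Mvk and Cyp46a1 were lowered by 0.50 or more on the log2 scale, in the authors' deposited table. Of these, Mvd and Mvk lost their calls under Bonferroni adjustment.

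Among the 17 measured enzymes 4 were higher (23.5%) and 2 lower (11.8%) in E4, near the 20.7% and 18.3% of all genes tested. Ebp, which moves a double bond in the sterol ring, averaged 431 counts in E4 and 172 in E0 from the authors' deposited table (2.50-fold, 1.32 ± 0.15, adjusted p = 1.21e-17). It was the highest value of the 31 genes there, 317th of all 14455. Sc5d, which acts on the next intermediates, averaged 732 in E4 and 433 in E0 (1.69-fold, 0.76 ± 0.13, adjusted p = 2.97e-08, authors' deposited table). Cyp51 averaged 777 in E4 and 594 in E0 (1.31-fold, 0.39 ± 0.10, adjusted p = 0.00089, authors' deposited table). These 3 belong to the 8 genes of the steps after lanosterol, too few to set their count apart from the shares of all genes.

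Of the 6 measured genes of the mevalonate steps 1 was higher and 2 lower in E4, against 20.7% and 18.3% of all genes tested. Mvd averaged 153 counts in E4 and 99.9 in E0 (1.53-fold, 0.61 ± 0.19, adjusted p = 0.00367, authors' deposited table). Mvk averaged 91.3 in E4 and 159 in E0 (1.74-fold lower, -0.80 ± 0.19, adjusted p = 0.000188, authors' deposited table). Fdps averaged 373 in E4 and 494 in E0 (1.32-fold lower, -0.41 ± 0.12, adjusted p = 0.00289, authors' deposited table), and 26.7% of its exon bases are shared with Gm43738 on the same strand. Idi1 at 0.17 ± 0.14, Acat2 at -0.12 ± 0.14 and Pmvk at -0.02 ± 0.14 did not pass in the authors' deposited table.

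None of the 3 genes of the squalene and lanosterol steps was called in E4. Sqle averaged 470 counts in E4 and 460 in E0 (0.03 ± 0.12, 95% interval -0.20 to 0.27) and Fdft1 572 in E4 and 555 in E0 (0.04 ± 0.11, interval -0.17 to 0.25), from the authors' deposited table. Ctsb, which shares exon bases with Fdft1, was called as lower in E4 (-0.42 ± 0.08), and its part in the Fdft1 value was not tested. Lss stood at -0.39 ± 0.18 (adjusted p = 0.0812) in the authors' deposited table. After lanosterol, Msmo1 at -0.13 ± 0.11, Hsd17b7 at -0.09 ± 0.18, Dhcr7 at 0.11 ± 0.15, Nsdhl at 0.01 ± 0.17 and Tm7sf2 at -0.40 ± 0.20 did not pass either in the authors' deposited table. Vps51, which shares exon bases with Tm7sf2, was called as lower in E4 (-0.60 ± 0.12), and its part in the Tm7sf2 value was not tested.

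Of the 5 regulators 2 were higher and 2 lower in E4, against 20.7% and 18.3% of all genes tested. Srebf2 averaged 2863 counts in E4 and 1560 in E0, from the authors' deposited table (1.84-fold, 0.88 ± 0.09, adjusted p = 1.2e-21, the smallest of the 31 genes). Insig1 averaged 736 in E4 and 468 in E0 (1.57-fold, 0.65 ± 0.11, adjusted p = 4.43e-08, authors' deposited table). Insig2 averaged 405 in E4 and 541 in E0 (1.34-fold lower, -0.42 ± 0.13, adjusted p = 0.00487, authors' deposited table), so the 95% intervals of the pair, 0.44 to 0.87 for Insig1 and -0.67 to -0.16 for Insig2, lie on either side of 0. Scap averaged 784 in E4 and 1001 in E0 (1.28-fold lower, -0.35 ± 0.11, adjusted p = 0.00583, authors' deposited table), with 13.2% of its exon bases shared with an unclassified transcript on the other strand. Srebf1 at 0.16 ± 0.13 was not called in the authors' deposited table.

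In uptake and transport Lrp8 alone of the 4 was called in E4. It averaged 1354 counts in E4 and 665 in E0, from the authors' deposited table (2.04-fold, 1.03 ± 0.11, adjusted p = 3.33e-19). Stard4 at -0.22 ± 0.27, Npc1 at -0.15 ± 0.11 and Npc2 at -0.21 ± 0.12 did not pass in the authors' deposited table. In export and turnover Abcg1 averaged 1220 in E4 and 978 in E0 (1.25-fold, 0.32 ± 0.10, adjusted p = 0.00491, authors' deposited table). Cyp46a1 averaged 1167 in E4 and 1655 in E0 (1.42-fold lower, -0.50 ± 0.09, adjusted p = 6.19e-07, authors' deposited table). The summed granule neuron markers in E4 stood beside it at 0.841 times those in E0, and their part in it was not tested. Abca1 at -0.11 ± 0.13, Nr1h2 at -0.10 ± 0.15 and Nr1h3 at -0.14 ± 0.36 did not pass in the authors' deposited table. Each of the 13 calls in E4 also passed an adjusted p of 0.01.

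The plot of group means shows how far apart the groups lay for every called gene.

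**Figure D3:**
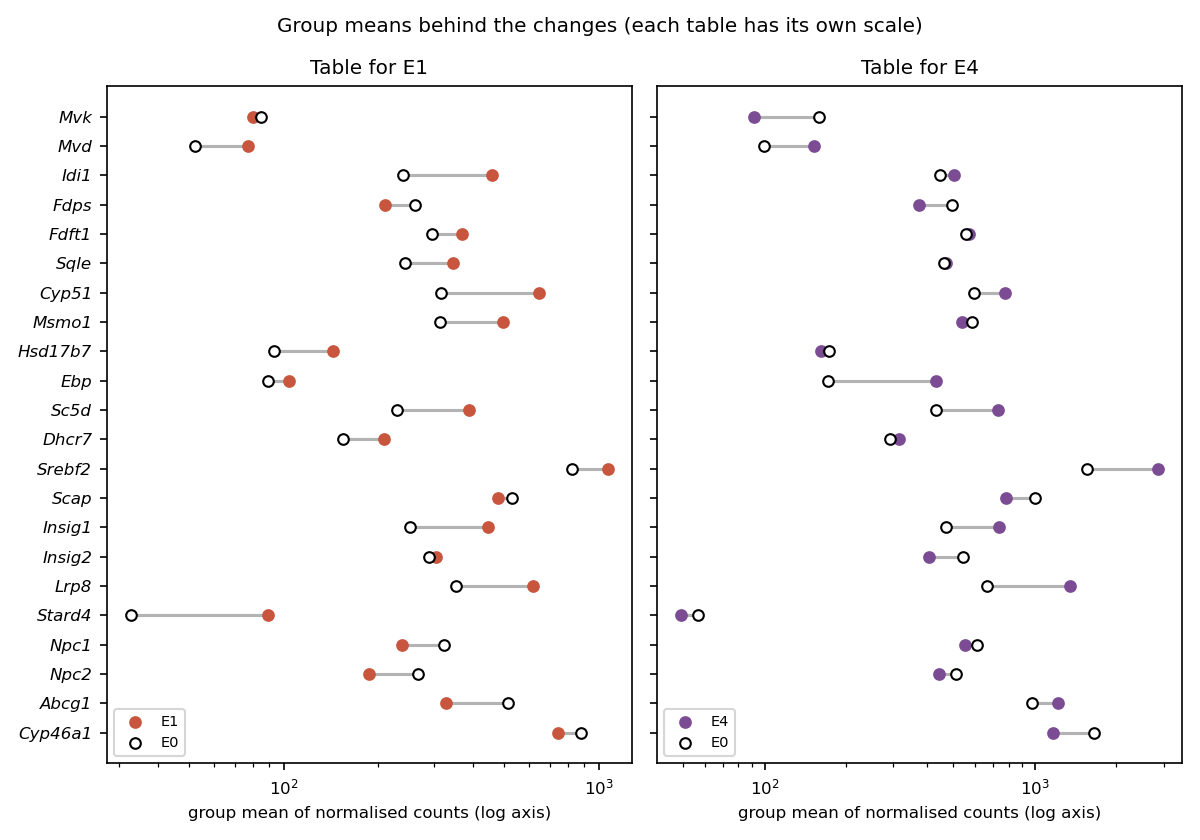
Group means of normalised counts (log axis) for the genes called in either comparison, filled points for E1 (left) or E4 (right) and open points for E0, computed from the authors' deposited tables. Each table has its own scale, so E0 points differ between the panels. Stard4 is spread widest on the left, 89.2 in E1 and 32.8 in E0, and Ebp on the right, 431 in E4 and 172 in E0.

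The change between the later and the earlier time was tested as the E4 minus E1 difference of the 2 log2 fold changes, which share their E0 libraries, over the root of the summed squared SEs. Of the 31 genes 3 were higher in E4 than in E1 (9.68%), against 17.7% of all 12766 genes tested, and 6 were lower (19.4%), against 19.0%. Called genes made up 36.7% of all genes tested, and the median difference was -0.19 over the 31 genes and 0.01 over all. The size of the error that both comparisons share through E0 is not given. When it was allowed for by subtracting the smaller of the 2 squared SEs, an assumption, 3 of the 31 genes were higher and 10 lower. The shares of all 12766 genes grew too, to 23.5% higher and 24.6% lower, 48.1% in either direction.

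The 6 genes lower in E4 than in E1 were 5 enzymes and Stard4. Stard4 had the largest difference, -1.66 ± 0.39 (adjusted p = 0.000158). Msmo1 differed by -0.79 ± 0.17 (adjusted p = 3e-05), Idi1 by -0.77 ± 0.20 (adjusted p = 0.000801), Hsd17b7 by -0.72 ± 0.28 (adjusted p = 0.0275), Cyp51 by -0.64 ± 0.16 (adjusted p = 0.000496) and Sqle by -0.47 ± 0.19 (adjusted p = 0.0334). All 6 had been called as higher in E1, and of them Cyp51 was still higher than E0 in E4.

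Ebp, Abcg1 and Srebf2 were higher in E4 than in E1. Abcg1 had log2 fold changes of opposite sign in the authors' deposited tables, 0.32 ± 0.10 in E4 and -0.66 ± 0.13 in E1, a difference of 0.97 ± 0.16 (adjusted p = 3.16e-08). Ebp differed by 1.11 ± 0.26 (adjusted p = 0.000174) and Srebf2 by 0.50 ± 0.13 (adjusted p = 0.000981). Sc5d, Insig1 and Lrp8 were higher than E0 at both times, and their differences between the times were not called, at -0.01 ± 0.21, -0.17 ± 0.20 and 0.21 ± 0.18, with 95% intervals of -0.41 to 0.39, -0.56 to 0.22 and -0.15 to 0.57. Mvk at -0.71 ± 0.31 (adjusted p = 0.0565) and Insig2 at -0.50 ± 0.21 (adjusted p = 0.0551) missed the threshold. With the assumed shared error removed, both were called as lower in E4, as were Acat2 and Cyp46a1.

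The plot of differences orders all 31 genes by that value.

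**Figure D4:**
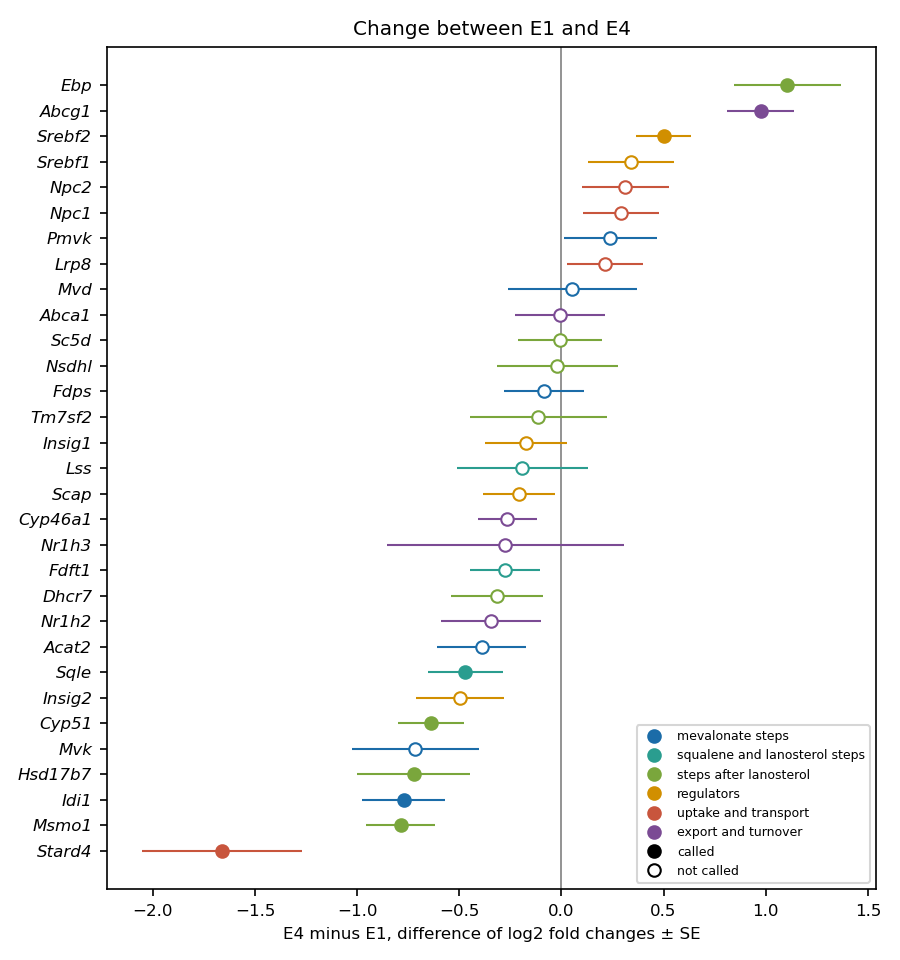
E4 minus E1 difference of the log2 fold changes with SE for the 31 measured genes, ordered by size, with colour for the role and filled points where the adjusted p was below 0.05. Ebp (1.11), Abcg1 (0.97) and Srebf2 (0.50) are filled on the right, and 6 genes from Sqle (-0.47) to Stard4 (-1.66) are filled on the left.

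Levels between genes were compared per kilobase of the longest annotated transcript, as E0 group means of the table for E4. Cyp46a1 was highest, at 781 normalised counts per kilobase, followed by Srebf2 at 307, Pmvk at 249, Scap at 237 and Insig2 at 201. The lowest were Lss at 21.4, Nr1h3 at 12.2 and Stard4 at 11.2. Among related genes, E0 levels per kilobase were 307 for Srebf2 and 98.6 for Srebf1, 201 for Insig2 and 173 for Insig1, and 122 for Nr1h2 and 12.2 for Nr1h3. These values carry no spread, and the transcript used in this tissue may be shorter than the longest annotated one.

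Around the pathway, 52 other genes of sterol handling, isoprenoid branches and lipid synthesis were listed. In E1, 8 of 52 tested were higher (15.4%), against 20.6% of all genes, and 7 lower (13.5%), against 15.0%, with a median log2 fold change of 0.01. The 4 rises with the smallest adjusted p in the authors' deposited table were those of Lpl, the lipoprotein lipase, at 1.90 ± 0.21, Elovl6, a fatty acid elongase, at 1.37 ± 0.16, Mbtps2, the site-2 protease that frees SREBP, at 1.15 ± 0.18 and Soat1, which esterifies cholesterol, at 1.03 ± 0.17. The falls were led by Clu, an apolipoprotein, at -0.61 ± 0.11, Fads1, a fatty acid desaturase, at -0.44 ± 0.10, Scarb1, a lipoprotein receptor, at -0.83 ± 0.19 and Scd2, a stearoyl-CoA desaturase, at -0.27 ± 0.08 in the authors' deposited table. Mbtps1, the other protease that cleaves SREBP, went the opposite way to Mbtps2 and was lower in E1 (-0.51 ± 0.15, adjusted p = 0.00355, authors' deposited table). Clu is known to be strongly expressed by astrocytes, 8 of whose 12 markers were lower in E1, and their part in its value was not tested.

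In E4, 6 of 51 tested were higher (11.8%), against 20.7% of all genes, and 16 lower (31.4%), against 18.3%, with a median log2 fold change of -0.06. The lowered genes with the smallest adjusted p in the authors' deposited table were Nceh1, a cholesteryl ester hydrolase, at -1.19 ± 0.11, Cyp7b1, an oxysterol hydroxylase, at -1.32 ± 0.14, Abca2, a lipid transporter of endosomes, at -0.88 ± 0.11, and Abcg4, a relative of Abcg1, at -0.84 ± 0.15. The raised ones were Scarb1 at 0.71 ± 0.12, Lbr, a sterol reductase of the nuclear envelope, at 0.75 ± 0.17, Erlin1 at 0.48 ± 0.13 and Rnf139 at 0.40 ± 0.12 in the authors' deposited table. Erlin1 and Rnf139 encode proteins of the endoplasmic reticulum that take part in sterol-regulated protein turnover.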

How the data were processed

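RNA libraries of the dentate gyrus came from 9 mice, 3 per group, grouped by sample title. Reads were aligned with TopHat2 to mm9 and compared with DESeq2, per the submitters' processing notes, without versions. The sources used here give neither the read counter, its annotation and strand use nor the formula of the model.

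The deposited signal is a DESeq2 mean, normalised counts averaged over 6 libraries, per the file headers. Its scale differs between the tables. Log2 fold changes and SEs were deposited as the authors' estimates. Their quotient is the deposited score (within 9.8e-08), from which the authors' p-value follows by the normal distribution. Benjamini-Hochberg adjustment gave back the authors' adjusted values within 3.56e-07. A gene is called where the adjusted p is below 0.05. Group means assume equal group sizes and fold changes that were not moderated, so they are approximate. The E0 means from both tables stood in a ratio of 1.89 (1.84 to 1.92 at the 5th and 95th percentiles of 9818 genes averaging 50 counts or more, and 1.74 to 1.93 over the 31 genes).

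E4 minus E1 used Benjamini-Hochberg adjustment over the 12766 genes averaging 10 counts or more in each table. It treats the comparisons as independent, although they share E0. Intervals are estimates ± 1.96 SE, not adjusted. Transcript lengths, GC content and exon overlaps come from GENCODE M21 (GRCm38), used for these properties only. Python 3.11.15 with pandas 2.3.3 and scipy 1.17.1 was used, and the difference test and trend removal were tested on simulated data. The simulated E0 error was itself of an assumed size, so it could not check the allowance made for E0. The tables hold no columns per library, so count tests and fits without a library were not run. The members, lists and motifs were chosen with earlier results of these data known. The planned choice of promoters to print returned none, so another was made after the data were seen. Named genes were all 32 members, and the 4 other lipid genes with the smallest adjusted p per direction and comparison. Mbtps1, Folr1, Gad1 and Gad2 were named in addition, as were genes that share exon bases with members.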

Additional observations from a re-analysis of the deposited data

Results flagged for a closer look

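For 9 genes the effect against E0 differed between the times, by a test of the difference itself. They are 9 of 31, where 36.7% of all 12766 genes tested were called, so the cholesterol genes were not called more often than genes at large. On the log2 scale, E4 minus E1, the differences were -0.77 for Idi1, -0.47 for Sqle, -0.64 for Cyp51, -0.79 for Msmo1, -0.72 for Hsd17b7 and -1.66 for Stard4. Those of Ebp, Srebf2 and Abcg1 were 1.11, 0.50 and 0.97. The E1 libraries were the shallowest, at 1940000 to 4760000 reads, and the part of depth in these differences was not tested.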

How the results depend on the processing

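No paired analysis was possible because the deposited tables hold no value per library, and libraries could not be left out in turn for the same reason. Under an adjusted p of 0.01, 9 of the 31 genes were higher in E1 and 1 lower, against 16.5% and 10.2% of all genes tested. Under Bonferroni adjustment 8 were called in E1, 7 higher and 1 lower, against 10.1% and 3.7% of all genes. In E4 it called 6, 5 higher and 1 lower, against 8.77% and 6.53%. With a log2 fold change of at least 0.5 required, 8 were called in E4, 6 higher and 2 lower, against 12.2% and 11.9% of all genes. In the E4 minus E1 test, removing an assumed shared part of the error gave 10 lower genes, against 24.6% of all. These settings are stricter by construction, apart from the last, which makes the SE smaller. Every other count of called genes was within 1.5 times its value. Removing the length and GC trend turned the sign of 4 uncalled estimates, Mvk (0.0885), Nsdhl (-0.0212) and Scap (0.0431) in E1 and Pmvk (0.0428) in E4. Centring on the median gene turned that of Nsdhl in E4 (-0.016). No called estimate changed sign under these settings. Over both comparisons, single genes kept their direction and side of the threshold in 404 of the alternatives run, lost a call in 21 and gained one in 2. Nr1h3, with the lowest mean counts, had the widest intervals, and SEs were wider in E1, whose libraries were shallower. The part of depth in this was not tested.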
